A study of Mus musculus with 2 samples.

Results

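Interleukin-17 (IL-17) type gamma-delta T cells were chosen by transcripts measured in the cells themselves, among immune cells of the inflamed mouse colon. A member had at least 2 unique molecular identifiers (UMIs, each standing for 1 captured transcript) of the CD3 chains Cd3d, Cd3e and Cd3g together, at least 1 of Trdc, the constant region of the delta chain, and at least 1 of Cd163l1, Trdv4 or Il17a. It had none of the B cell genes Cd79a and Ms4a1 and none of the CD8 genes Cd8a and Cd8b1. The rule found 113 cells among 14080 retained cells of the series, 24 in 1 library labelled WT and 89 in 1 library labelled CKO. Each library was made with the 10x 3′ kit from colon-infiltrating immune cells, and the mice were C57BL/6 with experimentally induced colitis. The series title names loss of RPA1, the large subunit of replication protein A, in T cells, and the labels do not spell out CKO. The colitis agent, the age and number of the mice, the exons deleted and the driver of the deletion were not stated in the labels. Each label had a single library, so no replicate and no test could be had, and the label cannot be told apart from the animals, the preparation or the library. Every interval is a 95% interval that covers counting error only. Values are given with the library labelled WT first, and every log2 ratio between libraries is of CPM (a gene's UMIs scaled to one fixed total in every pool of cells) in the CKO-labelled members over those in the WT-labelled members.

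Gamma-delta T cells carry a receptor of a gamma and a delta chain in place of the alpha and beta chains of conventional T cells. One branch leaves the thymus already set to make IL-17A, IL-17F and IL-22, with the transcription factor c-Maf, and settles in barrier tissues such as skin, lung, uterus and gut. Within it, cells whose receptor pairs Vgamma6 with Vdelta4 carry a nearly invariant receptor and the scavenger receptor Scart1, the product of Cd163l1. These cells respond to IL-1 and IL-23 from myeloid cells without waiting for antigen, and their cytokines call in neutrophils and act on the epithelium.

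The sequences of the genes behind the rule and of the cytokine pair that gives the cells their name are shown first. Trdv4, the variable segment of the Vdelta4 chain, lies on chromosome 14 of GRCm38 at chr14:54074905-54075515 on the plus strand, 67.3 kb before Trdc, which lies at chr14:54142851-54148868. Its second coding exon in GENCODE vM21, at chr14:54075217-54075515, is the germline template of most of the variable domain. Capitals mark the last cysteine codon in frame, with which, as background, the part that varies between T cell clones begins. Il17a (chr1:20730905-20734496, plus strand) and Il17f (chr1:20777146-20790617, minus strand) are neighbours 42.6 kb apart. The 250 bases before the RefSeq start of each, at chr1:20730655-20730904 and chr1:20784271-20784520 in GRCm38.p6, are shown because the members' IL-17 transcripts came from both. For Il17f the RefSeq start lies inside the GENCODE span given above, and so does the window. Capitals there mark AGGTCA, a core site of many nuclear receptors, and TGANTCA, the site of AP-1 dimers of Jun and Fos proteins, each searched on both strands.
Trdv4, second coding exon: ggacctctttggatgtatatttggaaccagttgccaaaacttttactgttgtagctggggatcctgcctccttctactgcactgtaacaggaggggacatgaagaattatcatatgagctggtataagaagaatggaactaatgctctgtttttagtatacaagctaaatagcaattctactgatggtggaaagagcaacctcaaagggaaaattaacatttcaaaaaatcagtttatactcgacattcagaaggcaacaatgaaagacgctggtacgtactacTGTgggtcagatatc
Il17a, 250 bases before its start: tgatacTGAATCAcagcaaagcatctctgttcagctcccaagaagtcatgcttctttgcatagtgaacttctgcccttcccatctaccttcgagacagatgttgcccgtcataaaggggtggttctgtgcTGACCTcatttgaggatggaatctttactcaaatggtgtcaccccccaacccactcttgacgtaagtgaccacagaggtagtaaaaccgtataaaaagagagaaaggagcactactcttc
Il17f, 250 bases before its start: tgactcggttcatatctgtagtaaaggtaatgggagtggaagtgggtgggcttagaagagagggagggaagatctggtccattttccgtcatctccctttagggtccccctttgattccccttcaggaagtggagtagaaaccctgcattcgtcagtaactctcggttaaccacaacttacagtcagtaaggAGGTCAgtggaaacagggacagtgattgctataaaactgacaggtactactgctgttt
In the Il17a window AGGTCA was on the minus strand, 120 to 115 bases before the start, and TGANTCA was 244 to 238 bases before it. Il17f had AGGTCA on the plus strand 58 to 53 bases before its start and no TGANTCA. Of 32851 promoter windows of this length, 4607 held AGGTCA and 2217, or 6.75%, held TGANTCA. A match describes these letters only.

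The libraries held 2972 and 11311 barcodes, of which 2925 and 11155 were retained. They shared 6 barcodes, and no member was among them. The members had a median of 5462.5 UMIs (2632 to 13521) and 5956 UMIs (2085 to 35875) per cell, and 141277 and 720565 UMIs in all. Some members also carried transcripts of other lineages. At least 20 UMIs of 19 myeloid and class II genes were found in 3 and 21 members, and at least 50 UMIs of 4 immunoglobulin genes in 2 and 1 others. These 5 of 24 and 22 of 89 cells had medians of 6087 and 13667.5 UMIs, against 5332 and 4811 in the rest, and held 22.9 and 43.5% of the members' UMIs. The remaining 19 and 67 cells held at most 10 UMIs of the myeloid and class II genes in either library, while the highest cell over the limit held 340 and 2152. Scrublet, a doublet caller, marked 0 and 1 members, and it marked 0.0342% of all WT-labelled cells, too few for it to have worked there. Each result below is therefore given for all 113 members and, where it differs, for the 86 cells under both limits (restricted members), a split chosen after the data were seen.

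**Figure D1:**
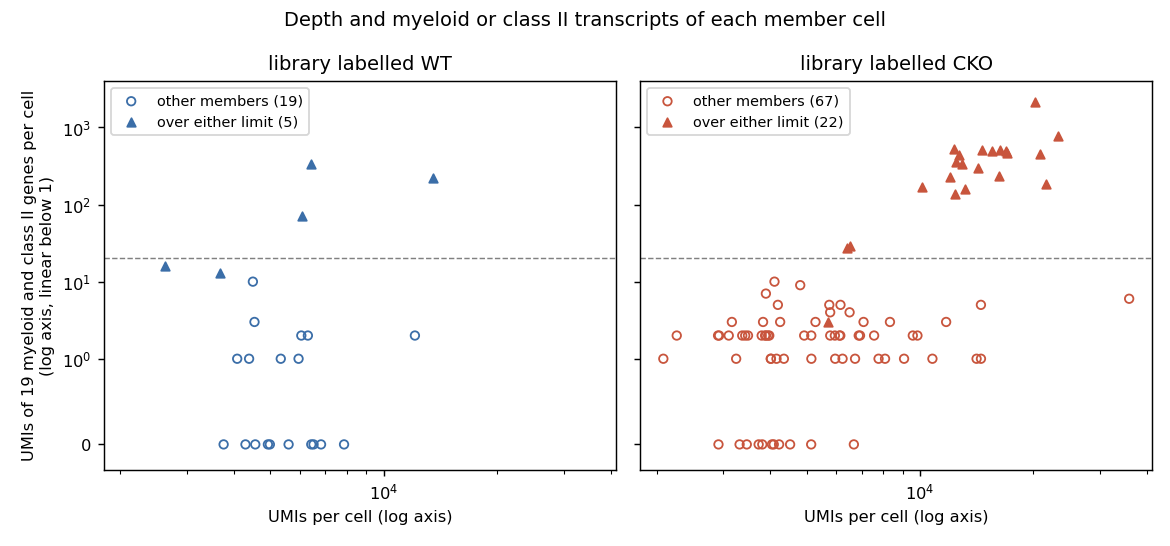
Each point is 1 member cell, with its total UMIs on the horizontal log axis and its UMIs of 19 myeloid and class II genes on the vertical axis (log, linear below 1), in the library labelled WT (left) and CKO (right). Filled triangles are the 5 and 22 cells over either limit and the dashed line is the limit of 20 UMIs. The triangles on the right have a median of 13667.5 UMIs per cell, against 4811 in the other CKO-labelled members.

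Members made up like shares of all cells under both labels but different shares of the T cells. They were 0.821% (0.526 to 1.22) and 0.798% (0.641 to 0.981) of retained cells. Of cells with the CD3 transcripts and no B cell transcript, they were 24 of 386, or 6.22% (4.02 to 9.11), and 89 of 845, or 10.5% (8.54 to 12.8). Among such T cells with Trdc and without CD8 transcripts the order turned, with 24 of 43, or 55.8% (39.9 to 70.9), against 89 of 272, or 32.7% (27.2 to 38.6). T cells with Trdc were 48 of 386 and 372 of 845, so cells without the 3 markers were the larger part of the CKO-labelled T cells with Trdc. For the restricted members the shares of retained cells were 0.650% (0.392 to 1.01) and 0.601% (0.466 to 0.762). The other shares kept these orders, at 4.92 and 7.93% of T cells and 44.2 and 24.6% of T cells with Trdc and without CD8 transcripts. These are shares of cells captured, and fewer cells of a type per colon cannot be told apart from fewer of them captured.

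Of the markers in the rule, Cd163l1 was found in 19 of 24 and 73 of 89 members, Trdv4 in 20 and 54, and Il17a in 9 and 37. All 3 were found together in 8 and 21 cells, 2 in 8 and 33, and 1 alone in 8 and 35. Trdc itself had a lowest, median and highest value of 1, 6.5 and 56 UMIs per cell in the library labelled WT and 1, 5 and 21 in the library labelled CKO, and Cd163l1 had 0, 3.5 and 12 against 0, 4 and 14. Trdv4 was at 545 and 235 CPM, Trdc at 1571 and 686 CPM, and Cd163l1 at 665 and 532 CPM. In restricted members the order of Cd163l1 turned, at 597 and 734 CPM, while Trdc was at 1744 and 952 CPM. Since these genes chose the cells, their levels describe the choice. The WT-labelled cell with the most Trdc, of 12098 UMIs, held 56 Trdc, 21 Trdv4, 21 Il17a and 13 Il17f UMIs, and it was also the only WT-labelled member with Il17f.

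Genes that the rule did not use are given next. Tcrg-C1, a constant region of the gamma chain, was found in 19 of 24 and 71 of 89 members, at 396 (299 to 515) and 290.1 (252 to 332) CPM. The Vgamma6 segment Tcrg-V6 was read at 2 and 6 UMIs only, too few to follow the pairing cell by cell. Cxcr6, a chemokine receptor of tissue-dwelling T cells, was found in 18 and 74 members, and Ccr2, a chemokine receptor shared with monocytes, in 21 and 72. Actn2, which codes for alpha-actinin, was found in 15 and 62 members, the kinase gene Blk in 12 and 59, and Maf in 18 and 58. Ccr6, a chemokine receptor of many IL-17 producing cells, had 0 and 4 UMIs in members. Transcripts of the beta chain constant regions were common, with Trbc1 in 14 and 64 and Trbc2 in 19 and 78 members, while Trac of the alpha chain was found in 4 and 10 members, with 2 or more UMIs in 0 and 4. Cd4 was found in 0 and 6 members. The 4 CKO-labelled members with 2 or more Trac UMIs all held Cd4, at 3 to 7 UMIs, and had 1 or 2 Trdc UMIs, so their transcripts go against the label of gamma-delta T cells. They held 28 of the 409 Il17a, 9 of the 160 Il17f, 50 of the 1096 Il22 and 0 of the 2207 Ifng UMIs of the CKO-labelled members. Without them, a setting added after the data were seen, the log2 ratios between the libraries were 0.54 for Il17a, 1.29 for Il17f, 1.67 for Il22 and 5.27 for Ifng.

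B cells, which should lack most of these transcripts, gave the level of free RNA, at median depths of 4352 and 3230.5 UMIs. With every cell thinned to 1000 UMIs, Tcrg-C1 was found in 33.3% (15.6 to 55.3) and 36.0% (26.1 to 46.8) of members and in 0.069 and 0.0373% of B cells. Actn2 was found in 25.0 and 29.2% of members, against 0.069 and 0.0187% of B cells, and Cxcr6 in 12 of 24 and 47.2% against 0.207 and 0.261%. Blk, which B cells also express, was at 29.2 and 19.1% in members and 10.4 and 9.65% in B cells. Il17a was at 16.7% (4.74 to 37.4) and 30.3% (21.0 to 41.0) in members, and at 0.207% (0.0427 to 0.603) and 0% (0 to 0.0689) in B cells. Without thinning, the member shares were 79.2 and 79.8% for Tcrg-C1, 62.5 and 69.7% for Actn2, 75.0 and 83.1% for Cxcr6 and 37.5 and 41.6% for Il17a.

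**Figure D2:**
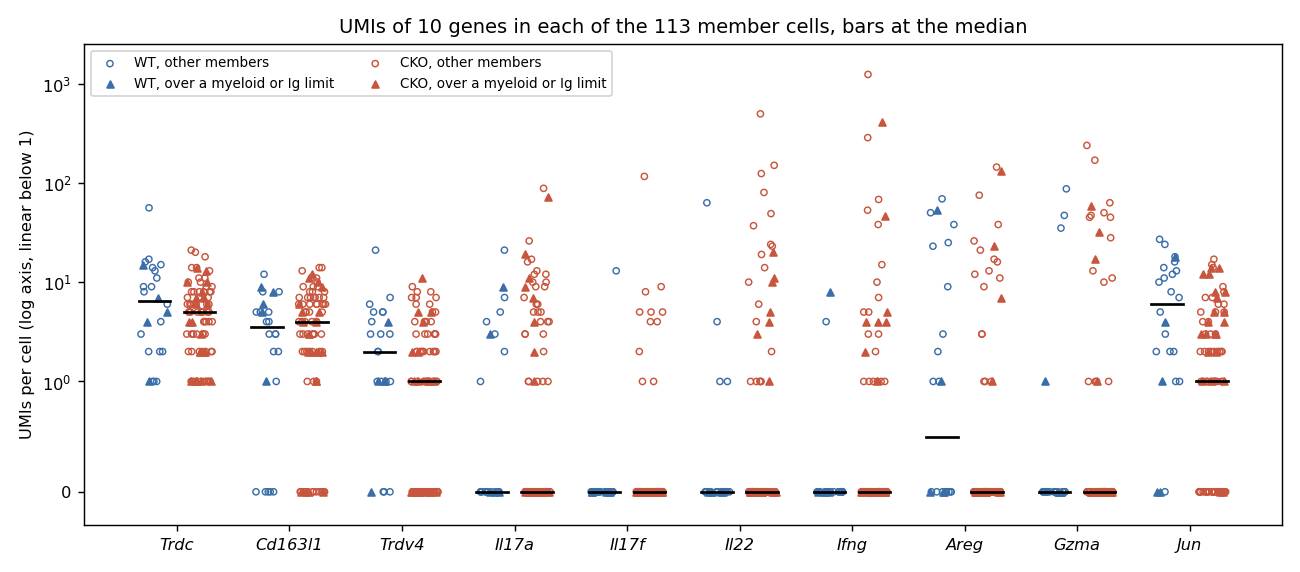
UMIs per cell of 10 genes (log axis, linear below 1) in each of the 24 WT-labelled (blue) and 89 CKO-labelled (red) members; triangles are cells over a myeloid or immunoglobulin limit and black bars are medians. Trdc and Cd163l1 spread across most cells, while Il17f, Il22, Ifng and Gzma were at 0 in most cells and high in few, up to 1234 UMIs of Ifng in a single cell.

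Members just inside the marker threshold of the rule differed from those well inside it. The 11 CKO-labelled members with exactly 1 UMI over the 3 markers had Actn2 at 71.3 CPM and Blk at 26.7 CPM, against 293 and 196 CPM in the 78 with more. Gamma-delta T cells with 0 UMIs of the markers, just outside, had 26.3 and 2.39 CPM. The 2 WT-labelled members with exactly 1 marker UMI had 0 CPM of both genes, against 336 and 268 CPM in the other 22. At the CD3 threshold the libraries differed. The 6 CKO-labelled members with a CD3 sum of 2 had Actn2 at 323 CPM, against 256 CPM in the 83 with more. The 2 WT-labelled members with that sum had 0 CPM, against 355 CPM in the other 22. Cells that met every step but Trdc, 18 and 36 in number, had Actn2 at 137 and 154 CPM, between the members and the other gamma-delta T cells. Among the restricted members Actn2 was higher the more of the markers a cell showed, at 211, 368 and 571 CPM for 1, 2 and 3 markers in the library labelled WT and 231, 326 and 536 CPM in the library labelled CKO. Ccr2 followed that order in the library labelled CKO (365, 646 and 777 CPM) and not in the library labelled WT (819, 491 and 571 CPM).

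The members were set against a pair of other gated populations. These were 19 and 183 other gamma-delta T cells, which met the rest of the rule but had no UMI of the 3 markers, and 83 and 129 CD4 T cells. The name of the former rests on Trdc alone. They held Trac at 155 and 85.3 CPM, against 28.3 and 38.9 CPM in members and 416 and 280.0 CPM in CD4 T cells. Their Tcrg-C1 was at 56.3 and 120 CPM, against 396 and 290 CPM in members. How many of them were alpha-beta T cells was not tested. The rule and the values share the same cells, so the differences are described and not tested. With 10 CPM added to each level, 64 of 1309 genes read were at least 2-fold higher than in other gamma-delta T cells in both libraries (4.89%) and 21 were lower (1.60%). Against CD4 T cells the counts were 44 (1.36%) and 52 (1.60%) of 3247.

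Against other gamma-delta T cells, the members had more transcripts of the IL-1 receptor, IL-22 and amphiregulin, and fewer of Cd7, Klrd1, Klra7, Ccl5 and Xcl1. The genes furthest apart that the rule did not use were Il22, Blk, Il1r1, Areg, Npnt and Actn2. Il1r1, the signalling receptor for IL-1, was at 212 and 98.5 CPM in members and 7.03 and 3.19 CPM in other gamma-delta T cells. Areg, the epidermal growth factor family ligand amphiregulin, was at 1947 and 770.2 CPM against 35.2 and 90.9 CPM. Npnt, the extracellular matrix protein nephronectin, was at 163 and 79.1 CPM against 0 and 2.39 CPM. Il23r, the receptor subunit for IL-23, was at 149 and 68.0 CPM against 42.2 and 1.59 CPM. Lower in members were Cd7 (28.3 and 63.8 against 359 and 525 CPM), the natural killer receptor genes Klrd1 (21.2 and 36.1 against 183 and 271 CPM) and Klra7 (0 and 4.16 against 162 and 67.0 CPM), and the chemokine genes Xcl1 (92.0 and 160 against 928 and 625 CPM) and Ccl5 (340 and 931 against 2152 and 3110 CPM). Gimap7, Gramd3 and the adhesion receptor Cd2 were also among the 8 lowest. Among restricted cells, Ptgs2, which encodes the prostaglandin enzyme COX-2, was at 340 and 353 CPM against 10.0 and 5.33 CPM, and the spermine oxidase gene Smox had 33 and 110 UMIs against 2 and 8 UMIs. Tyrobp, Nr4a2 and Zfp36l2 were among the 8 lowest there.

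Against CD4 T cells, the members had more transcripts of Tcrg-C1, Blk and Gzma and fewer of Trac, Cd28 and Tnfrsf4, while the costimulator gene Icos was at 1302 and 662 CPM in members and 527 and 463 CPM in CD4 T cells. Tcrg-C1 was at 7.81 and 13.2 CPM in CD4 T cells, Blk at 0 and 6.59 CPM, and Pde5a, a phosphodiesterase that breaks down cyclic GMP, at 0 and 19.8 CPM, against 191 and 173 CPM in members. Gzma, the serine protease granzyme A, was at 1203 and 1153 CPM in members and 35.2 and 101 CPM in CD4 T cells. Of the genes lower in members, Trac was at 28.3 and 38.9 against 416 and 280.0 CPM, the costimulatory receptor Cd28 at 7.08 and 47.2 against 234 and 244 CPM, and the OX40 gene Tnfrsf4 at 0 and 58.3 against 549 and 299 CPM. Cd5, Cd2, Tnfsf8 and Gramd3 were in the same set. Il17a itself, a gene of the rule, was at 389 and 568 CPM in members and 56.6 and 46.1 CPM in CD4 T cells.

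**Figure D3:**
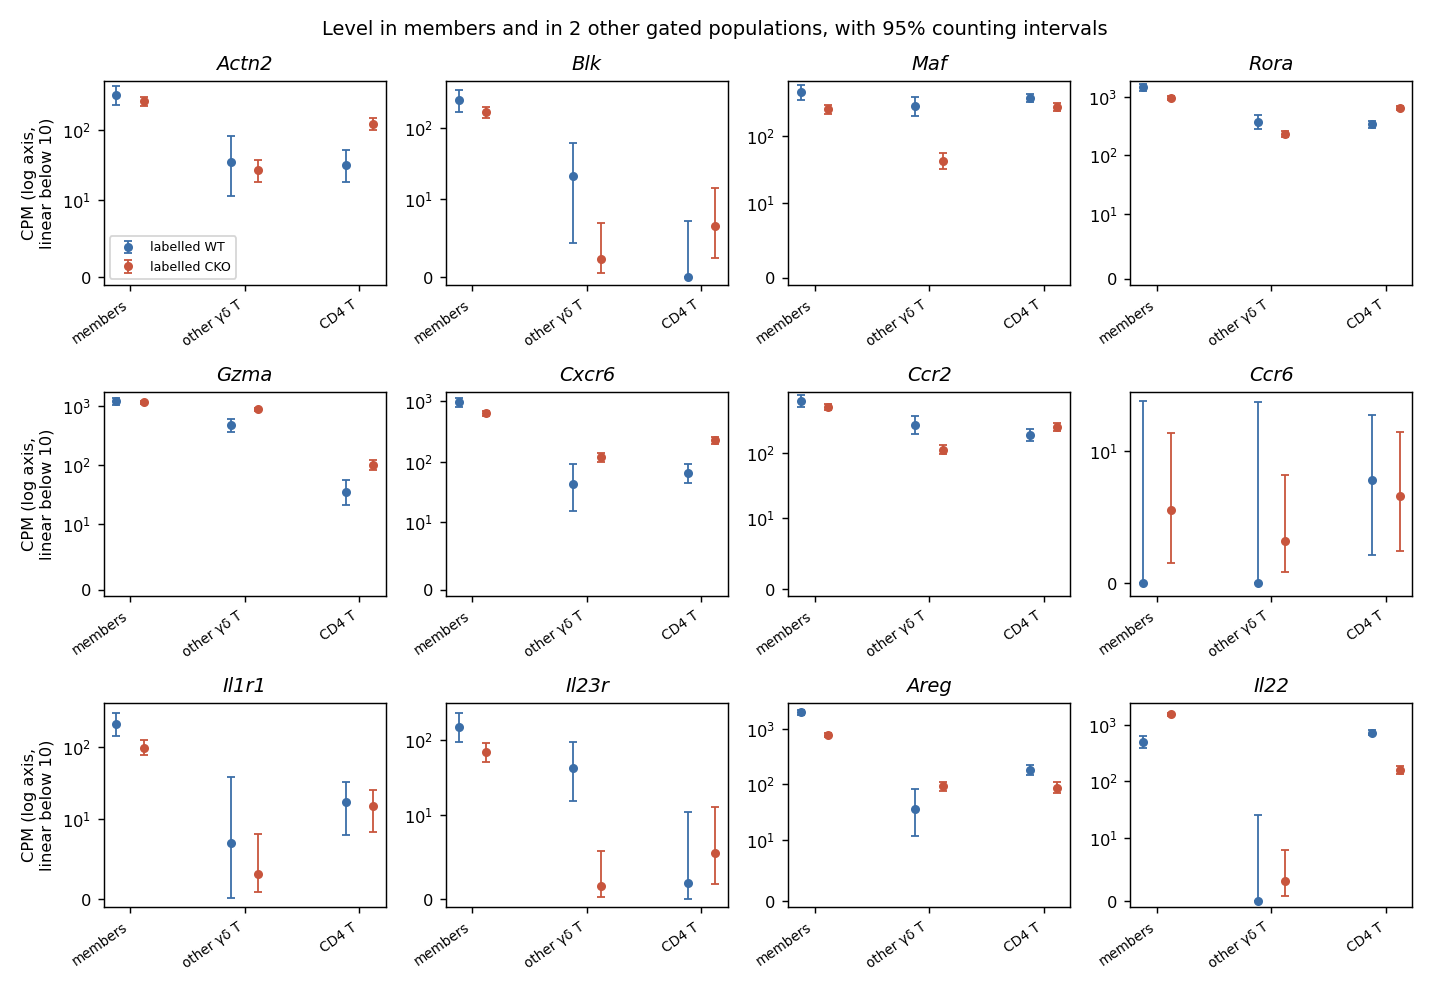
Level of 12 genes in CPM (log axis, linear below 10) in the members, other gamma-delta T cells and CD4 T cells, with the library labelled WT in blue, the library labelled CKO in red and 95% counting intervals as bars. Actn2, Blk, Il1r1 and Cxcr6 were above the other gamma-delta and CD4 T cells in both libraries.

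The comparison between the labels began with the gene named in the series title. Rpa1 had 5 UMIs in 5 WT-labelled members and 23 UMIs in 14 CKO-labelled members, or 35.4 and 31.9 CPM, a log2 ratio of -0.15 (-1.58 to 1.60). At this depth no difference was detectable, and a 3′ tag outside the deleted exons would not show a deletion. Among all members 3722 genes had at least 30 UMIs over both libraries. Of these, 339 (9.11%) were at least 2-fold higher in the library labelled CKO and 219 (5.88%) at least 2-fold lower, with a median log2 ratio of 0.01. Among restricted members 2407 genes were read, 181 (7.52%) higher and 129 (5.36%) lower, with a median of -0.00. These are the shares against which the lists below are read.

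Il17a, Il17f and Il22, the leading cytokines of the type 3 response, were higher in CPM in the CKO-labelled members, and most members held none of each. Of 6 type 3 cytokine genes read, 3 were at least 2-fold higher and 0 were lower, at a median of 0.91, against 2 of 5 higher and a median of 0.82 among restricted members. Il17a had 55 and 409 UMIs, or 389 and 568 CPM, a ratio of 0.54 (0.14 to 0.98), which is a description because Il17a chose members. It was 0.82 (0.35 to 1.32) in restricted members. Il17f, its close relative, had 13 UMIs in 1 cell and 160 UMIs in 11 cells, or 92.0 and 222 CPM, a ratio of 1.27 (0.46 to 2.21), with 116 of the 160 in 1 cell. Il22, which acts on epithelial cells, had 69 UMIs in 4 cells and 1096 UMIs in 26 cells, or 488 and 1521 CPM, a ratio of 1.64 (1.29 to 2.01), and 2.01 (1.66 to 2.39) in restricted members. A single cell held 63 of the 69 and another 495 of the 1096 Il22 UMIs, and without both the ratio was 4.30. In CD4 T cells Il22 went the other way, at 721 and 159 CPM, and in the library labelled WT it was above the members. Other gamma-delta T cells had 0 and 3.19 CPM. Tnf was at 28.3 and 73.6 CPM over all members but had 2 and 5 UMIs in restricted members, and Ltb and Csf2 had ratios of -0.24 (-0.74 to 0.30) and -0.44 (-1.39 to 0.61).

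The cytokine transcripts were detected together in some cells and apart in others, and 0 UMIs in a cell does not show that the transcript was absent. All 12 members with Il17f also had Il17a, while 1 of 4 and 12 of 26 members with Il22 did. Because Il17a is a gene of the rule, these overlaps are partly set by the choice of cells. Il17a was the only marker found in 1 and 7 members. Other gamma-delta T cells, which hold no Il17a by the rule, had 3 and 3 Il17f UMIs. The CKO-labelled cell with most Il22, of 14127 UMIs in all, held 495 Il22, 116 Il17f and 88 Il17a UMIs and 0 of Ifng. Another, of 4023 UMIs, held 124 Il22 UMIs and 0 of Il17a, Il17f and Areg, while the third, of 7555 UMIs, held 150 Il22 and 144 Areg UMIs. Among the B cells of the 2 libraries, thinned to 1000 UMIs, Il22 was found in 1.45 and 0.971%, against 8.33% (1.03 to 27.0) and 19.1% (11.5 to 28.8) of members.

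Ifng, the cytokine of type 1 immunity, had the widest gap between the labels. It had 12 UMIs in 2 WT-labelled members and 2207 UMIs in 27 CKO-labelled members, or 84.9 and 3063 CPM, a ratio of 5.17 (4.36 to 6.13). A single CKO-labelled cell of 14510 UMIs held 1234 of them with 169 Gzma UMIs. Another of 16272 UMIs, which also held 505 myeloid and class II UMIs, held 407, and the third, of 3802 UMIs, held 285. The cells with 407 and 285 Ifng UMIs each met the markers by 1 Trdv4 UMI, with 0 of Cd163l1, Il17a, Actn2 and Blk. Much of the gap thus lay in 1 cell and in cells at the edge of the rule. Without the top cell of each library the ratio was 5.58. In restricted members it was 6.86 (5.50 to 8.73), with all 4 WT-labelled UMIs in 1 cell. Without their top cells no WT-labelled UMI was left, so the value of 5.48 is a lower bound, taken with 3 WT-labelled counts. At least 5 Ifng UMIs were found in 1 and 13 members, and of the 13 CKO-labelled ones 8 also held at least 10 Gzma UMIs and 3 at least 5 Il17a UMIs. In other cells of the libraries Ifng was at 162 and 789 CPM in other gamma-delta T cells and 35.2 and 430.4 CPM in CD4 T cells. Thinned B cells held Ifng in 0.621 and 0.859% of cells, and members in 4.17% (0.105 to 21.1) and 14.6% (8.01 to 23.7).

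Areg went the other way. It was found in 12 of 24 and 20 of 89 members, with 10 or more UMIs in 6 and 12, and summed to 275 and 555 UMIs, or 1947 and 770.2 CPM, a ratio of -1.34 (-1.55 to -1.12). In restricted members it was 2028 and 959.7 CPM, a ratio of -1.08. Tnfsf11, which encodes the ligand RANKL, was at 177 and 69.4 CPM, a ratio of -1.35 (-2.07 to -0.60). Areg was also lower in CD4 T cells of the library labelled CKO (182 and 85.6 CPM), and higher in other gamma-delta T cells (35.2 and 90.9 CPM). Among effector products, Gzma was at 1203 and 1153 CPM, a ratio of -0.06 (-0.30 to 0.19), and was held by 4 and 19 cells. Ccl5 had 48 UMIs in 2 cells and 671 UMIs in 41 cells, a ratio of 1.45 (1.03 to 1.91), and without the WT-labelled cell that held 44 of the 48 and the top CKO-labelled cell it was 4.81. Of 12 chemokine and effector genes read, 6 were higher and 0 lower over all members, against 3 higher and 1 lower of 8 in restricted members.

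Receptors through which other cells drive these lymphocytes were more often below than above the WT-labelled level in the CKO-labelled members. Of 14 read, 4 had ratios above 0, 1 was at least 2-fold higher and 3 were lower, at a median of -0.35. Over all genes read, 9.11% were higher and 5.88% lower. Of 12 in restricted members 4 had ratios above 0, 0 were higher and 1 was lower, at a median of -0.38. The count of 1 lower is near the 5.36% of all genes lower there, where 7.52% were higher. Il7r, the receptor of the survival cytokine IL-7, had 118 and 229 UMIs, or 835 and 318 CPM, a ratio of -1.39 (-1.72 to -1.06), and -1.24 (-1.61 to -0.87) in restricted members. Per cell it had a lowest, median and highest value of 0, 5 and 12 UMIs against 0, 2 and 13. Il1r1 had a ratio of -1.11 (-1.74 to -0.44) and Il23r of -1.13 (-1.89 to -0.32), which were -0.90 (-1.58 to -0.19) and -0.83 (-1.63 to 0.01) in restricted members. The receptors of the IL-18 pair did not follow, with Il18r1 at 0.08 (-0.42 to 0.62) and Il18rap at 0.55 (-0.14 to 1.33). Tnfrsf4 had 0 and 42 UMIs, the latter in 9 cells, and a lower bound of the log2 ratio was 1.46, by a floor of 3 counts over the members of a library.

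Of 15 transcription factors of the type 3 programme read over all members, 2 had ratios above 0, against 5 of 12 in restricted members, where the median was -0.15. Over all members, 0 of the 15 were at least 2-fold higher and 1 was lower, at a median of -0.20, and the 1 was Zbtb16, which encodes PLZF, a factor of innate-like T cells, at 142 and 52.7 CPM and a ratio of -1.42 (-2.24 to -0.57). Maf was at 439 and 248 CPM, a ratio of -0.82 (-1.25 to -0.38), and Rora at 1458 and 949 CPM, a ratio of -0.62 (-0.85 to -0.39). Stat3, which carries the IL-23 signal, was at -0.05 (-0.33 to 0.24), Id2 at -0.02 (-0.32 to 0.29) and Hif1a at -0.15 (-0.48 to 0.20). Of the chemokine receptors, Cxcr6 had a ratio of -0.61 (-0.89 to -0.33) over all members but -0.14 (-0.46 to 0.19) in restricted members, and Ccr2 had -0.33 (-0.67 to 0.02) and -0.12 (-0.51 to 0.29). Cxcr4 was lower in both, at -1.24 (-1.94 to -0.51) and -1.27 (-2.17 to -0.32). Of the surface genes, Actn2 and Blk had ratios of -0.27 (-0.75 to 0.24) and -0.55 (-1.10 to 0.04), the costimulator Icos -0.98 (-1.22 to -0.72) and the early activation marker Cd69 -1.27 (-1.76 to -0.77), while the IL-2 receptor gene Il2ra was at 0.38 (-0.03 to 0.82), and 0.80 (0.33 to 1.30) in restricted members.

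Some genes of the list of immediate early genes were lower in the CKO-labelled members. Immediate early genes are switched on within minutes of a stimulus, and the list also held Rgcc and Lmo4, which are not classical members of that class. Of 19 read, 6 had ratios above 0, 0 were at least 2-fold higher and 4 were lower (Rgcc, Jun, Fosb and Lmo4), at a median of -0.50. Of 16 in restricted members, 3 had ratios above 0, 0 were at least 2-fold higher and 5 were lower (the same 4 and Dusp1), at a median of -0.70. Jun, an AP-1 subunit, had 199 and 263 UMIs, or 1409 and 365 CPM, a ratio of -1.95 (-2.22 to -1.68). Per cell Jun had a lowest, median and highest value of 0, 6 and 27 UMIs against 0, 1 and 17, and after thinning it was found in 58.3% (36.6 to 77.9) and 27.0% (18.1 to 37.4) of members. Fosb, which pairs with it, was at 956 and 297 CPM, a ratio of -1.69 (-2.003 to -1.36), and Rgcc at 269 and 69.4 CPM, a ratio of -1.95 (-2.59 to -1.31). Nfkbia was the reverse over all members, at 0.59 (0.34 to 0.85), and -0.02 (-0.35 to 0.31) in restricted members. Jun was lower under the CKO label in other cells too, in 29.7 and 19.3% of thinned B cells and at 637 and 256 CPM in CD4 T cells, but at 492 and 466 CPM in other gamma-delta T cells. Fosb was at 422 and 336 CPM in other gamma-delta T cells and 295 and 288 CPM in CD4 T cells.

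**Figure D4:**
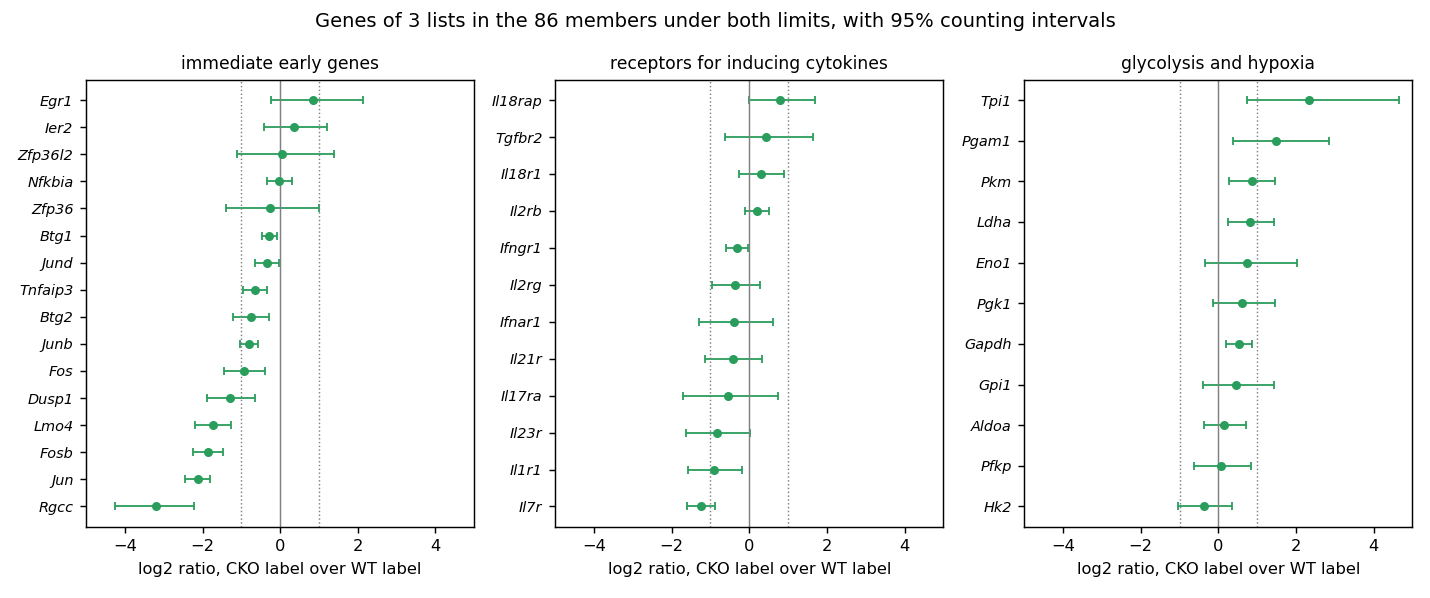
Log2 ratios of CPM (CKO label over WT label) in the 86 restricted members, with 95% counting intervals, for the genes read in the lists of immediate early genes, receptors for inducing cytokines, and glycolysis and hypoxia; dotted lines mark 2-fold. Jun, Fosb, Lmo4, Rgcc and Dusp1 lie beyond 2-fold lower and Tpi1 and Pgam1 beyond 2-fold higher.

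By a rule of size applied to all genes with at least 50 UMIs, the 10 lowest ratios belonged to Socs2, Arl4a, Epas1, Jun, Sdc1, Fosb, Cd37, Pxdc1, Klf4 and Rgs1. Rgs1, a brake on chemokine receptor signalling that marks lymphocytes held in tissue, had a lowest, median and highest value of 0, 9 and 41 UMIs per cell against 0, 5 and 27, or 2336 and 799 CPM, a ratio of -1.55 (-1.74 to -1.35). It was higher in CD4 T cells of the library labelled CKO (285 and 648 CPM). Epas1, which encodes the hypoxia factor HIF-2alpha, was at 276 and 72.2 CPM, a ratio of -1.94 (-2.56 to -1.30). Socs2, a suppressor of cytokine signalling, was at 227 and 48.6 CPM, a ratio of -2.22 (-2.96 to -1.48), with 16 CKO-labelled cells holding its 35 UMIs. Klf4, a Krüppel-like transcription factor, was at 319 and 93.0 CPM (-1.78), Arl4a, a small GTPase, at 177 and 37.5 CPM (-2.24), and the tetraspanin gene Cd37 at 205 and 69.4 CPM (-1.56). Sdc1, the proteoglycan syndecan-1, had a ratio of -1.63 (-2.47 to -0.75). All 10 were at least 2-fold lower among restricted members too, from -2.52 for Socs2 to -1.51 for Rgs1. In the restricted set the rule also named Cited2 (-1.90), Lmo4 (-1.72), Pdcd10 (-1.56) and Slc7a6os (-1.96).

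The 10 highest ratios over all members included myeloid and class II genes, most of which had few UMIs in restricted members. Besides Ifng they were Ccl4, Slpi, Lgals3, H2-Ab1, Mpeg1, Hist1h1b, Csf2rb, Saa3 and Apoe. H2-Ab1, a class II chain, had 20 and 812 UMIs (2.99), of which 15 and 799 lay in the cells over a limit, and it had 5 and 13 UMIs (-0.52) in restricted members. The secreted protease inhibitor gene Slpi had 5 and 250 UMIs, and 2 and 1 in restricted members. Mpeg1, a pore protein of macrophages, had 3 and 123 UMIs, and 0 and 1. Saa3, an acute phase protein gene, had 0 and 118 UMIs, at least 7.71-fold higher over all members, and 0 and 2 in restricted members. Monocyte and macrophage markers were also higher in the library labelled CKO, and their part in these ratios was not tested beyond the restricted values given here. Over all members, 10 could be read, of which 8 were higher and 0 were lower, with summed levels of 1345 and 3637 CPM and 0 to 55 against 0 to 454 UMIs per cell. Among restricted members Ccr2 was the only 1 of the 12 that could be read, the list summed to 70 and 261 UMIs, of which Ccr2 gave 69 and 238, and Csf1r, Adgre1, Fcgr1, C1qc and Nos2 were at 0 in both libraries. Neutrophil markers summed to 462 and 3919 UMIs over all members and to 3 and 94 in restricted members, with at most 1 and 5 in a cell.

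Of the genes with the highest ratios in restricted members, Ifng and Il22 had the most UMIs. Hist1h1b, a linker histone made while DNA is copied, had 4 UMIs in 2 cells and 185 UMIs in 8 cells, a ratio of 3.63 (2.25 to 5.52), with 97 in a single cell. The interferon-induced membrane protein genes Ifitm3 and Ifitm1 had 2 and 116 UMIs (3.96; 2.07 to 7.02) and 1 and 91 UMIs (4.61; 2.09 to 9.92), with 65 and 42 in single cells. Irf8, a transcription factor of the interferon family, had 2 and 62 UMIs (3.05; 1.14 to 6.13) in 2 and 22 cells. Atp1b3, a subunit of the sodium pump, had 3 and 57 UMIs (2.35; 0.73 to 4.67) in 3 and 28 cells, the most cells of the set. Plac8 had 9 and 184 UMIs (2.45; 1.49 to 3.60), Lgals3, the lectin galectin-3, had 2 and 64 UMIs (3.10; 1.19 to 6.17), and Fcer1g had 0 and 70 UMIs, at least 6.24-fold higher. With WT-labelled counts under 3 raised to 3, as for calls and ranks, Ifitm3, Ifitm1, Irf8 and Lgals3 had ratios of 3.37, 3.02, 2.47 and 2.51. In the cells over a limit, Plac8 had 109 and 1076 UMIs, Ifitm3 61 and 738 and Fcer1g 49 and 438, and the part of these other transcripts in the restricted ratios was not tested. Of the genes in the highest set over all members, Ifng, Hist1h1b and Lgals3 were in the highest set of the restricted members as well.

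**Figure D5:**
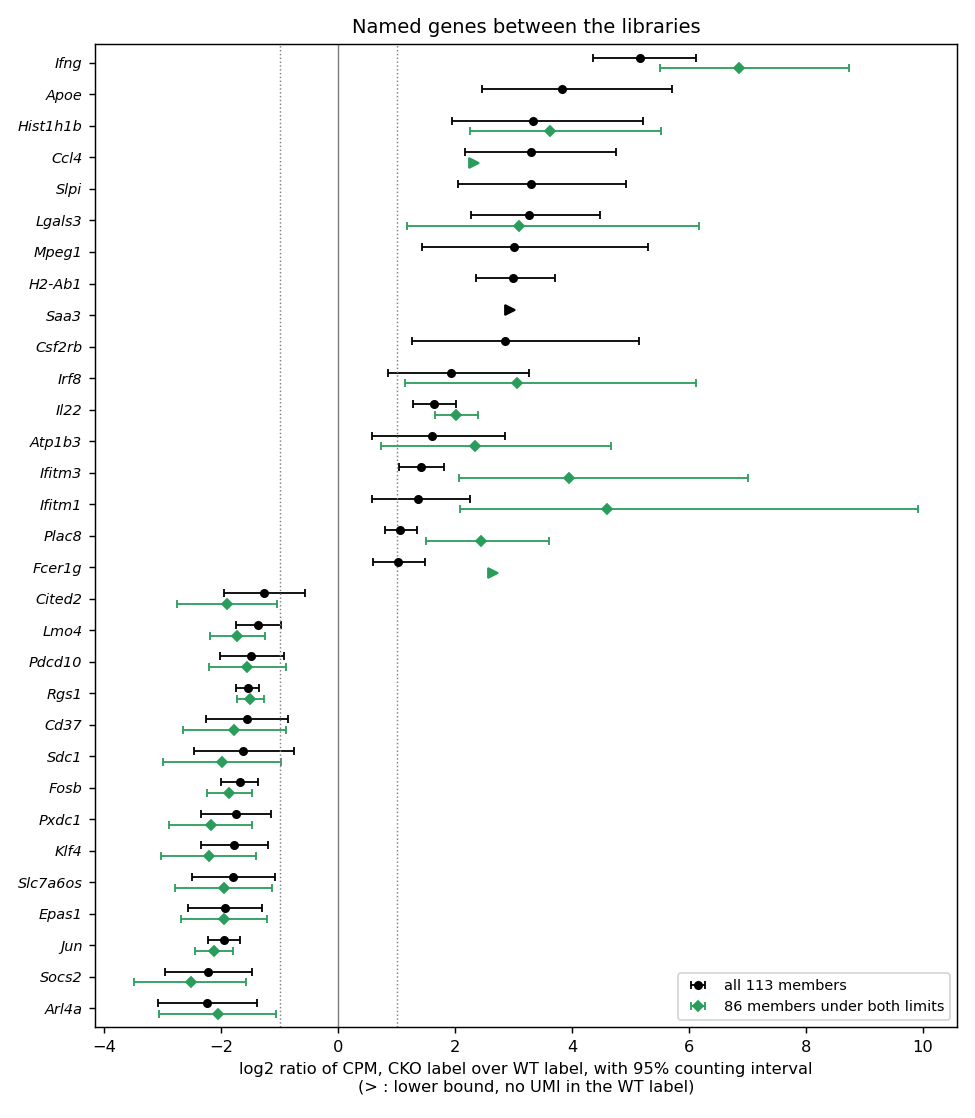
Log2 ratio of CPM (CKO label over WT label) with 95% counting intervals for the genes named by size in all 113 members (black circles) or in the 86 restricted members (green diamonds); triangles are lower bounds for genes with no WT-labelled UMI, dotted lines mark 2-fold, and a missing green point means under 30 UMIs. Ifng is the highest in both sets, and Jun, Fosb, Klf4, Epas1 and Rgs1 lie beyond 2-fold lower in both.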

How the data were processed

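RNA was measured in single colon immune cells from a pair of libraries, 1 with the label WT and 1 with the label CKO. The deposited values are whole-number UMI counts per gene and cell barcode, not normalized, per the file headers, which name cellranger 6.0.1. The submitters' processing notes list the mm10 build, Seurat 3.2.3 and, unlike the headers, Cell Ranger 5.0.0. Barcodes with under 200 genes or over 20% mitochondrial UMIs were left out. The 2 libraries held 18627050 and 57740083 UMIs.

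Members were gated on raw counts, and the counts of each library's members were summed and scaled to CPM. Intervals were exact Poisson ones for levels, Clopper-Pearson ones for shares and conditional exact ones for ratios, all at 95%. Genes were read at 30 or more UMIs over both libraries and counted at 2-fold. For calls, ranks and medians, and for bounds against 0 counts, counts under 3 over a library's members were raised to a floor of 3. Ratios printed with an interval used the counts as they were. UMIs and cells are not replicates, so no p-value was made. Genes were named as the 10 largest and 10 smallest ratios at 50 or more UMIs, taking the value nearer 0 of that with and without the top cell of each library, and as the 8 largest and smallest against each other population with 20 or more UMIs in the higher one. Unnamed gene models, ribosomal, mitochondrial, immunoglobulin, receptor segment and sex-chromosome transcripts were left out of that naming. Lists (26 lists, 416 entries) gave counts, medians and the genes with the largest ratios. The surface genes Actn2, Blk, Icos, Cd69 and Il2ra, with Nfkbia, Gzma, Hspa5 and Ldha, were named after their values were seen. Members and lists were chosen with earlier results of these data known, and the limits of 20 myeloid and class II UMIs and 50 immunoglobulin UMIs after the cells were seen. B cells, with 2 or more UMIs of Cd79a and Ms4a1 and no CD3 UMI, gave the level of free RNA after thinning to 1000 UMIs. Interval and count steps were tested on simulated Poisson counts pooled per library. That simulation held no single cells, so it does not show how the intervals behave where 1 cell holds many UMIs of a gene. Python 3.11.15, scanpy 1.11.5, numpy 2.4.6, pandas 2.3.3, scipy 1.17.1 and matplotlib 3.10.9 were used. Gene positions and the Trdv4 exon are from GENCODE vM21, and the promoters from RefSeq. No protein sequence was used here, and 2 genes and 1 cell population gated on a gene among them are not reported here.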

Additional observations from a re-analysis of the deposited data

How the results depend on the processing

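No paired analysis was possible because each label has 1 library. The members' share of cells was 6.22 and 10.5% with T cells as denominator, and 0.601% for the restricted members in the library labelled CKO, while the other gate settings moved it within its counting interval. The 339 higher and 219 lower genes became 734 and 643 at 1.5-fold, 339 and 346 at 20 UMIs, 142 and 79 at 60 UMIs, 510 and 130 without the top cell of each gene in each library, 181 and 129 in restricted members, and 170 and 118 there with each cell weighted alike. Higher genes were 60.8% of the calls, against 79.7% without top cells and 49.5% at 20 UMIs. Against CD4 T cells, 44 higher and 52 lower genes became 23 and 16 with 50 CPM added, and lower genes 91 in restricted cells. Of 326 values of 37 named genes beyond 2-fold, 44 in 15 genes left the counting interval of the gene's ratio but kept its sign. These came with a higher CD3 or Trdc minimum, cells weighted alike, no top cells or restricted members. A further 6 values in 4 genes fell below 0, all in restricted members. H2-Ab1 was at -0.52, and -0.028 without top cells. Counts under 3 were raised to 3 for the others, so Csf2rb (-0.17, from 0 and 10 UMIs) and Apoe without top cells (-1.49) are lower bounds and show no reversal, and Tnf (-1.17, and -1.49 without top cells) rests on 2 and 5 UMIs. Leaving out members with 2 or more Trac UMIs gave 334 higher and 228 lower genes and 0.762% of CKO-labelled cells. With 24 WT-labelled cells, a gene of 30 UMIs can rest on a handful of transcripts, so its interval is wide. Leaving out a library was not possible. Restricted members and settings that use them were chosen after seeing the data.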

Other observations

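Other gene groups of the members were read from the same lists. Of 14 glycolysis and hypoxia genes read over all members, 12 had ratios above 0 and 3 passed 2-fold upward and 0 downward, at a median of 0.46. In restricted members 10 of 11 were above 0, with a median of 0.61, and the 2 beyond 2-fold were Tpi1 (27.5 and 140 CPM; 2.35, 0.73 to 4.67) and Pgam1 (64.2 and 179 CPM; 1.48, 0.36 to 2.84), enzymes of the middle and lower part of the pathway. Ldha, which makes lactate, had a ratio of 0.82 (0.25 to 1.43) there. Acadl, an enzyme of fatty acid oxidation, had 3 and 72 UMIs in restricted members, a ratio of 2.68 (1.08 to 4.99). In restricted members the chaperone of the endoplasmic reticulum Hspa5 was at 2138 and 4047 CPM (0.92, 0.72 to 1.12), and Hsp90aa1 at 431 and 901 CPM (1.06, 0.62 to 1.53).

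Genes of dividing cells were read in few cells. At least 5 Mki67 UMIs were found in 1 of 24 and 10 of 89 members. In restricted members all 9 such genes read had ratios above 0, with a median of 0.68, and Pcna (1.10, 0.14 to 2.21) and Birc5 (1.65, 0.20 to 3.59) were beyond 2-fold. Of the 18 type I interferon genes, 15 were read over all members, 4 higher and 0 lower and a median of 0.38, and 8 in restricted members, 1 higher and a median of 0.40. Of 22 cell death genes read over all members, 4 passed 2-fold upward and 0 downward, at a median of 0.41, and of 17 in restricted members 1 was higher, Casp8, with 4 and 45 UMIs and a ratio of 1.59 (0.13 to 3.53), and the median was 0.20.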
